A study of Homo sapiens with 6 samples.

Results

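Complement is a cascade of plasma proteases and receptors that marks surfaces for clearance and recruits leukocytes. Expression of 9 complement components and regulators (CFB, C3, CFI, C1S, C1R, CD55, CD59, C5AR1 and CFD) was examined in 6 arrays of 2 established ovarian cancer lines, among 17687 named genes. The 9 genes were picked by gene symbol with their levels and siRNA ratios already known, so their values are given as a description without a test. RMG1 cells, derived from clear cell carcinoma, were transfected with siCPNE8 #A, siCPNE8 #B or siControl, and OVCAR3 cells, a model of high-grade serous carcinoma, with siBHLHE41 #A, siBHLHE41 #B or siControl. CPNE8 encodes a calcium-dependent phospholipid-binding protein and BHLHE41 a transcriptional repressor of the circadian clock. All cells received an siRNA by transfection, and total RNA was hybridised to 1 Clariom S array per siRNA, so that each knockdown is set against 1 control array and a group of siRNA arrays means 2 different siRNAs against 1 target. Whether the RNA of these arrays came from independent cultures is not stated, and any SD or p-value measures only the spread between these samples.

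In the classical pathway C1r and C1s are the proteases of the first complement complex. The alternative pathway assembles its convertase from C3 and factor B (CFB), which factor D (CFD) cleaves, and C3 is the component on which all pathways meet. Factor I (CFI) cuts the activated forms of C3 and C4, CD55 dissociates convertases on the cell surface, CD59 blocks the membrane attack complex, and C5AR1 is the receptor of the anaphylatoxin C5a. Liver supplies most complement of plasma, but epithelial cells also make C3 and factor B under inflammatory cytokines such as IL6 and interferon gamma, whose signals reach promoters through STAT and NF-κB factors.

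The targeted genes were lower in the cells that received their siRNAs. CPNE8 had log2 values of 10.67 with siCPNE8 #A and 11.92 with #B, against 13.76 with siControl in RMG1. BHLHE41 had 12.99 with siBHLHE41 #A and 13.63 with #B, against 14.51 with siControl in OVCAR3. Over transcript probes the correlation r lay between 0.990 and 0.993 within a line and between 0.920 and 0.928 across lines, given as a description since the arrays share most probe effects. A probe was called above background where its value was higher than that of 95% of the 612 negative control probes on the array, a limit that lay between log2 7.86 and 8.47. All 7 epithelial markers measured were above background in RMG1 arrays and 6 in OVCAR3 arrays. None of 9 immune cell markers was above background in any array, with the log2 of their summed level between 8.96 and 9.28 in RMG1 and between 8.67 and 9.03 in OVCAR3, and PTPRC, CD14 and CSF1R were below it throughout. Of 7 fibroblast markers COL1A2 alone was above background. The clear cell marker ANXA4 was above background in every array and higher in every RMG1 array than in every OVCAR3 array. The same held for PAX8 and MECOM, so that 2 of the 3 detected genes of the serous marker list were higher in RMG1, the line derived from clear cell carcinoma. The third, WT1, was above background in OVCAR3 with siBHLHE41 #B and siControl only, and NAPSA, GPC3, SOX17 and ESR1 were above background in no array.

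Of the 9 complement genes, C3, CD55 and CD59 were above background in all 6 arrays. CFB and C5AR1 were above it in some OVCAR3 arrays and in no RMG1 array. C1R, C1S, CFI and CFD were above background in no array, with log2 values between 3.12 and 6.83. The level of a gene is compared here between arrays and not between genes, since probes differ in brightness.

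**Figure D1:**
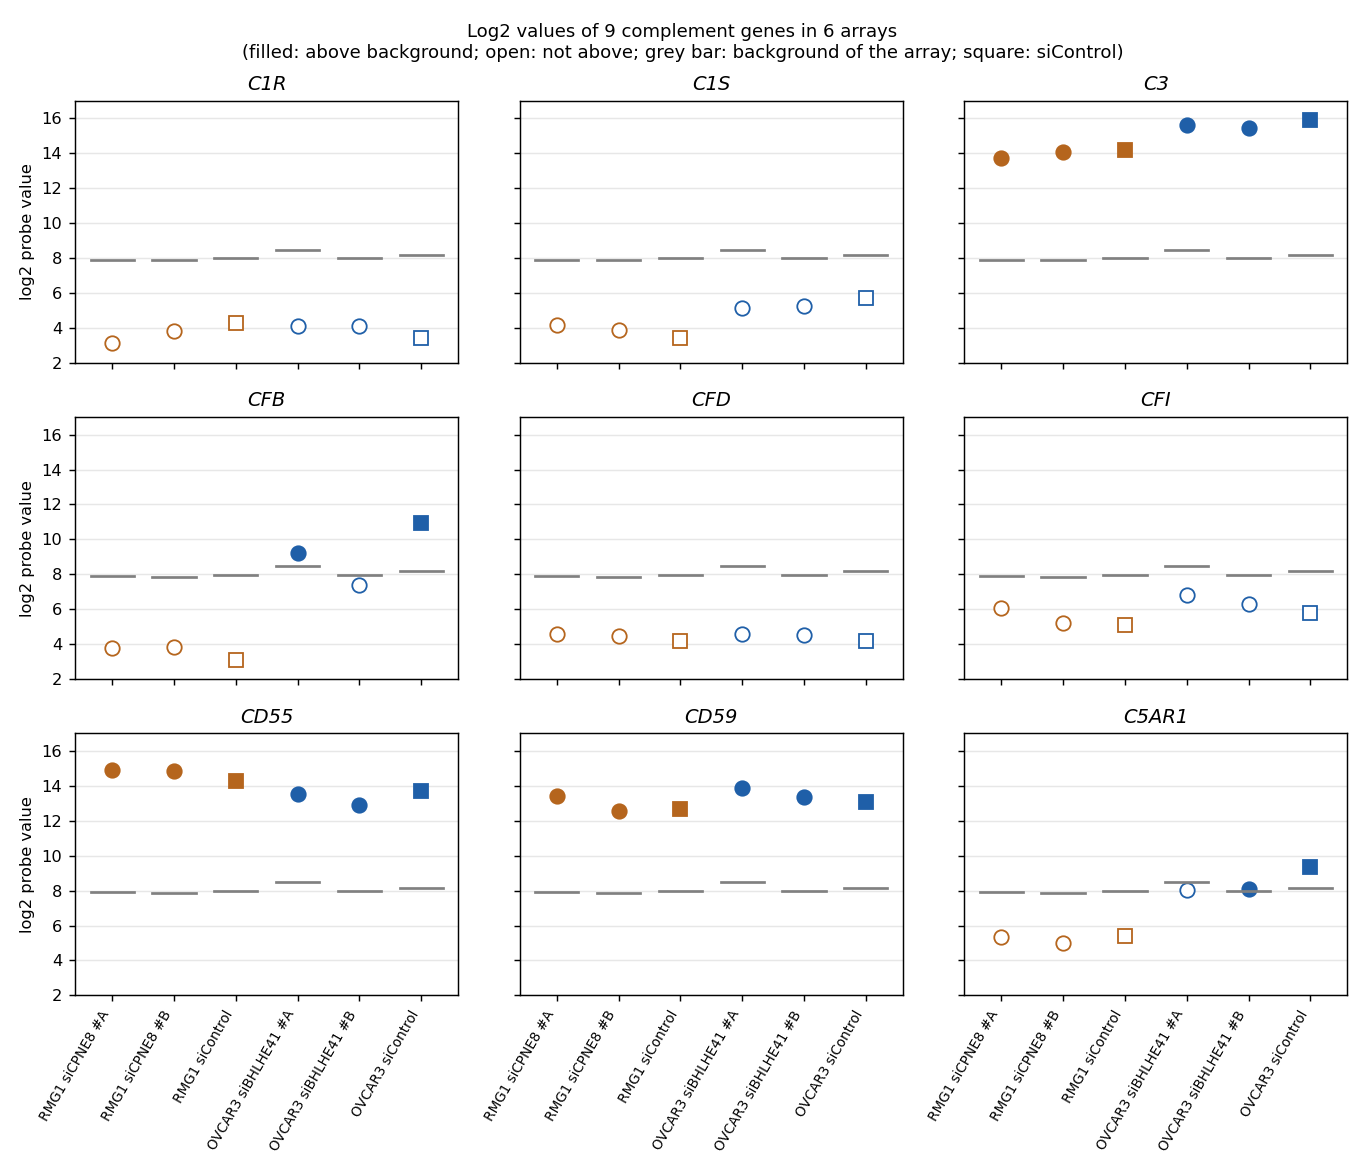
Log2 probe value (vertical axis) of each of the 9 genes in the 6 arrays (horizontal axis), with filled symbols above the background of the array, open symbols not above it, squares for siControl and a grey bar for the background. C3, CD55 and CD59 lie above background everywhere, CFB and C5AR1 only in OVCAR3, and the other 4 genes nowhere.

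CFB had the largest difference among the 9 genes. In OVCAR3 cells its log2 value was 9.20 with siBHLHE41 #A and 7.39 with siBHLHE41 #B, against 10.92 with siControl. The siControl array was highest, and with #B the value was no longer above background. The log2 ratio to siControl was -1.72 with #A and -3.53 with #B, which left 30.4% and 8.67% of the siControl signal, the last of these uncertain in size because it was not above background. The mean log2 ratio was -2.62 ± 1.28 (SD, n = 2 siRNAs), with the same uncertainty. The order of the siRNAs differed from that of the target: the log2 ratio of BHLHE41 itself was -1.51 for #A and -0.88 for #B. In RMG1 cells CFB read 3.77 with siCPNE8 #A and 3.83 with #B, against 3.09 with siControl, and none of these values was above background.

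C5AR1, which myeloid cells are best known to carry, was lower with both siBHLHE41 siRNAs by nearly the same amount. In OVCAR3 it had log2 values of 8.06 with siBHLHE41 #A and 8.07 with #B, against 9.33 with siControl. The log2 ratios were -1.27 and -1.26, or 41.5% and 41.9% of the siControl signal, and the value with #A was not above the background of its array. In RMG1 it read 5.35 with siCPNE8 #A and 5.02 with #B, against 5.40 with siControl, all below background.

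The promoters of genes past the fold limits in a line where they were detected are shown so that the sites in them can be read beside these values. Each sequence is the 250 bases before the annotated start, 5′ to 3′ on the strand of the gene, from RefSeq (GRCh38.p14), which gave a promoter for 7 of the 9 genes. Capitals mark matches on either strand to the gamma-activated site of STAT factors (TTCNNNGAA) or to the interferon-stimulated element (GAAA and GAAA, 2 bases apart).
CFB, chr6:31945845-31946094, plus strand: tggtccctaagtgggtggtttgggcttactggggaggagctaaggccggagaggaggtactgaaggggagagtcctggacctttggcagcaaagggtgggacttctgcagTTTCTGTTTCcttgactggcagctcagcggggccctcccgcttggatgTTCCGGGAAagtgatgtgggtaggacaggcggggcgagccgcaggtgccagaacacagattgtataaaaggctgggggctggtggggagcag
C5AR1, chr19:47309611-47309860, plus strand: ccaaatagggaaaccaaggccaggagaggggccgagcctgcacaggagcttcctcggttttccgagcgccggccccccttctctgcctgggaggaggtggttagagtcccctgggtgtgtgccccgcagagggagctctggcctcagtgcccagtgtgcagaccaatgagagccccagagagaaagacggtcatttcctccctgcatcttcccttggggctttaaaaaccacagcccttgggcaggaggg
CD55, chr1:207321428-207321677, plus strand: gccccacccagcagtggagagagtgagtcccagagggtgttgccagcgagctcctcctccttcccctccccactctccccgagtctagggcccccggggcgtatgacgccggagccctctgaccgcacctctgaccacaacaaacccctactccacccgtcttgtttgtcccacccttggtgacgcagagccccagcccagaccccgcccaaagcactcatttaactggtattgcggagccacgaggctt

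The CFB promoter held 1 interferon-stimulated element, from 140 to 131 bases before the start on the opposite strand, and 1 palindromic gamma-activated site from 92 to 84 bases before it. Over all 35116 promoters cut to the same length, 3.02% held the first and 6.57% the second. The gamma-activated site also occurred in promoters of CD59 and C1R. The C/EBP motif (TTNNGNAA), present in 33.2% of promoters, was in those of CFI, CD59 and C1R. Matches of different motifs did not overlap. The E-box CACGTG, which BHLHE41 and related proteins bind, is held by 6.34% of promoters and was in no promoter of the 7 genes. The result for the NF-κB consensus depended on its definition. A form with only A or T at the sixth base, found in 5.21% of promoters, was in none of the 7 genes, while the form with any base there, found in 9.96%, matched the CFB promoter from 112 to 103 bases before the start (not in capitals) and no other. The windows of C5AR1 and CD55 held none of these motifs. A match or its absence describes the letters of these windows only.

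C3 was close to siControl in both lines. Its log2 values were 15.60 with siBHLHE41 #A and 15.43 with #B, against 15.92 with siControl in OVCAR3, and 13.75 with siCPNE8 #A and 14.08 with #B, against 14.18 with siControl in RMG1. All 4 siRNA arrays were thus below the control of their line, by log2 ratios of -0.32 and -0.49 in OVCAR3 and of -0.43 and -0.10 in RMG1. None of these reached 0.66-fold. Of the pair that forms the alternative pathway convertase, C3 kept 71.3% or more of its siControl signal in OVCAR3 arrays in which CFB kept 30.4% or less.

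The membrane regulators were detected in every array, and CD55 differed in direction between the experiments. CD55 had log2 values of 14.93 with siCPNE8 #A and 14.85 with #B, against 14.26 with siControl in RMG1. These are 1.59-fold and 1.51-fold of siControl, or 0.63 ± 0.06 on the log2 scale (mean and SD of 2 siRNAs). The ratio with #B lay at the limit of 1.5-fold and fell to 1.46-fold when the arrays were quantile normalized. In OVCAR3 CD55 had 13.53 with siBHLHE41 #A and 12.90 with #B, against 13.72 with siControl, with log2 ratios of -0.18 and -0.82. The 2 experiments target different genes in different lines, and the difference between them was not tested.

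CD59 was less even between siRNAs. In OVCAR3 it had 13.86 with siBHLHE41 #A and 13.34 with #B, against 13.05 with siControl, or log2 ratios of 0.81 and 0.28. In RMG1 it had 13.42 with siCPNE8 #A and 12.56 with #B, against 12.68 with siControl, so that #A lay above siControl and #B slightly below. In each line CD59 was higher with #A than with #B, by 0.52 in OVCAR3 and 0.86 in RMG1 on the log2 scale.

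**Figure D2:**
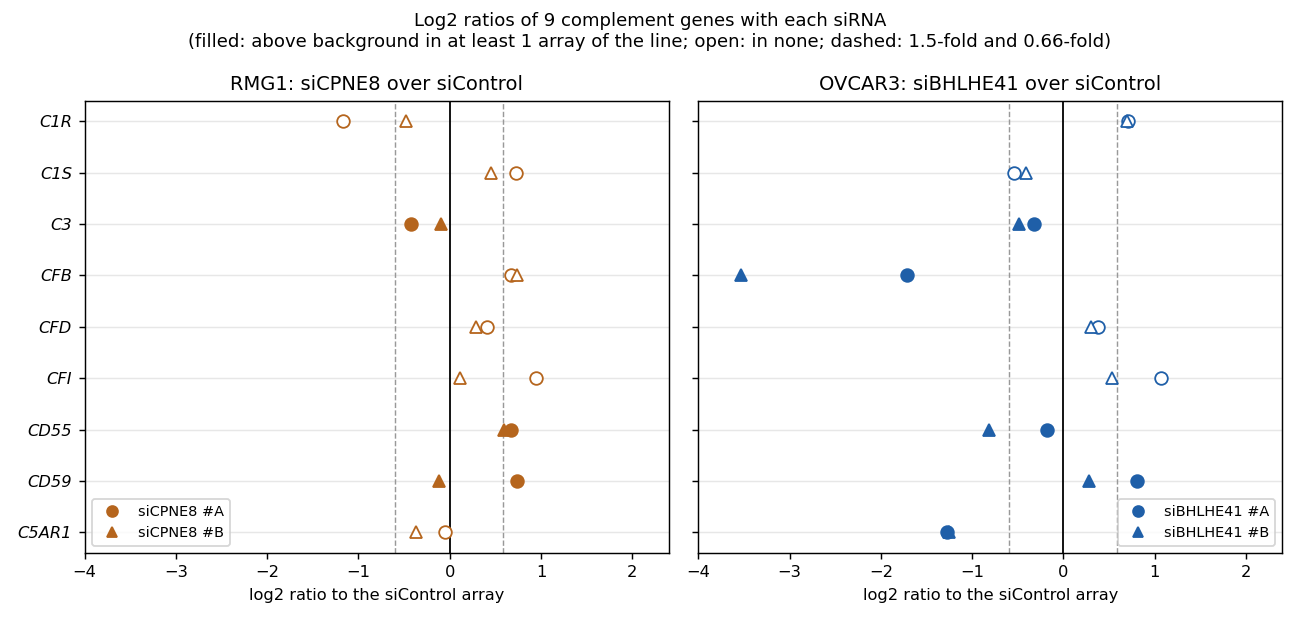
Log2 ratio to the siControl array of the line (horizontal axis) for each gene, with circles for siRNA #A and triangles for #B, RMG1 on the left and OVCAR3 on the right. Open symbols mark genes above background in no array of the line, and dashed lines mark 1.5-fold and 0.66-fold. CFB lies furthest from 0, at -1.72 and -3.53 in OVCAR3, and C5AR1 is at -1.27 and -1.26.

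Both siRNAs were required to pass 1.5-fold or 0.66-fold for a gene to be counted, which is the criterion of the study. With siBHLHE41, 2 of the 9 genes were under 0.66-fold of siControl (CFB and C5AR1) and 1 was over 1.5-fold (C1R, below background throughout), where 2.14% and 3.06% of all named genes were called, or 2.04% and 3.70% of those above background in the line. With siCPNE8, CD55 and CFB were over 1.5-fold, CFB below background, and 0 were under 0.66-fold, where 2.51% and 2.70% of all named genes were called, or 2.71% and 2.07% of those above background in the line. Because these ratios were known when the genes were picked, nothing is read from these shares or from the medians and counts of sides that follow. The median of the mean log2 ratio of the 9 genes was -0.41 in OVCAR3 and 0.35 in RMG1, beside -0.01 for all named genes in either line. The RMG1 median was the value of CFD, below background, and 6 of the 9 genes were above background in no RMG1 array. Both siBHLHE41 siRNAs lay on the same side of siControl for all 9 genes, and both siCPNE8 siRNAs for 8 of them, CD59 being the exception. Since both ratios share 1 control array, this was also true of 67.9% of all named genes with siBHLHE41 and 66.2% with siCPNE8. At an adjusted p under 0.05 limma called 0 of 21448 transcript probes in either experiment, with 570 higher and 611 lower at an unadjusted p under 0.05 for siCPNE8 and 634 and 465 for siBHLHE41.

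The detected genes also differed between the lines. According to the study, OVCAR3 cells were grown in DMEM and RMG1 cells in RPMI medium, so line and medium cannot be told apart. CD55 averaged 14.68 ± 0.37 in RMG1 and 13.38 ± 0.43 in OVCAR3 (log2, SD, n = 3 arrays each), 2.45-fold higher in RMG1. With the siControl arrays alone its log2 difference was 0.54, against 1.29 with all arrays. C3 averaged 14.00 ± 0.22 in RMG1 and 15.65 ± 0.25 in OVCAR3, a log2 difference of -1.65. For both, the 3 arrays of one line did not overlap those of the other, even though each line includes knockdown arrays. CD59 averaged 12.89 ± 0.47 in RMG1 and 13.41 ± 0.41 in OVCAR3, and its arrays overlapped. CFB averaged 3.57 ± 0.41 in RMG1, not above background, and 9.17 ± 1.76 in OVCAR3, which puts OVCAR3 at least 2.39-fold higher when the background of the RMG1 arrays is used as their level. Computed in the same way C5AR1, with means of 5.26 ± 0.20 in RMG1 and 8.49 ± 0.73 in OVCAR3, was at least 1.49-fold higher in OVCAR3. CFB was above background in 2 of the 3 OVCAR3 arrays, and so was C5AR1. The OVCAR3 means of both include the knockdown arrays. With the siControl arrays alone the log2 difference was -7.82 for CFB, against -5.60 with all arrays, and -3.93 for C5AR1, against -3.23. These sizes rest on RMG1 values below background. In all, 1 of the 9 genes was higher and 4 were lower in every RMG1 array than in every OVCAR3 array, C1S among the 4 but below background. This stands beside 24.2% higher and 25.6% lower among all named genes, or 34.0% and 36.6% of those above background, and the levels were part of what was known at the choice of genes.

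**Figure D3:**
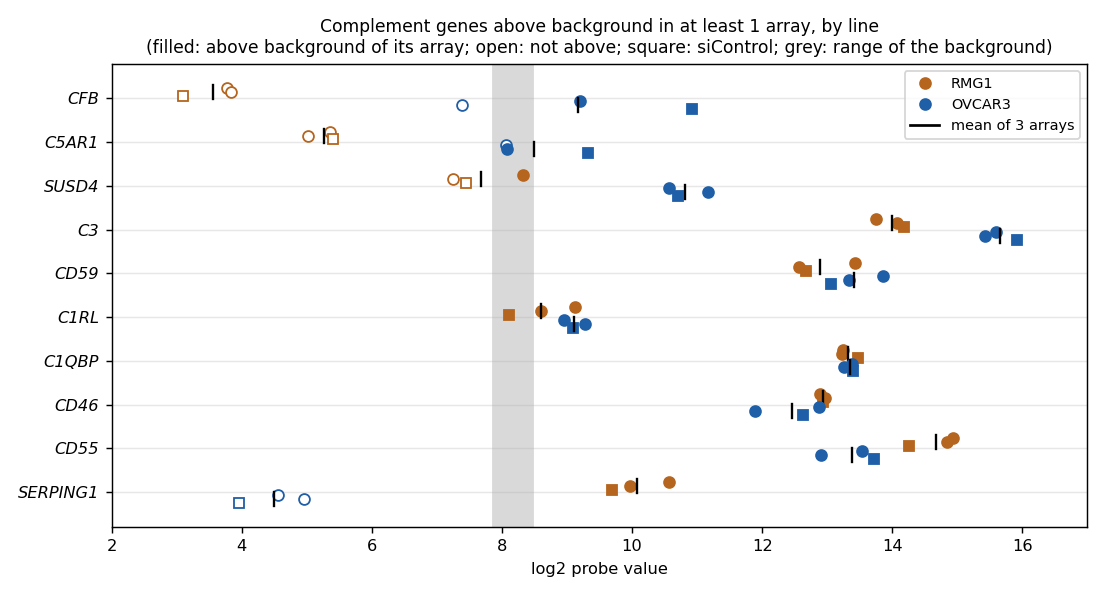
Log2 probe value (horizontal axis) in the RMG1 and OVCAR3 arrays for the 10 complement genes above background in at least 1 array, with squares for siControl, open symbols for values not above the background of their array, a black bar for the mean of 3 arrays and grey for the range of the background. SERPING1 is above background only in RMG1 and CFB and C5AR1 only in OVCAR3, and brightness is not comparable between genes.

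Other genes of the complement system were mostly not detected. Of 53 listed, 47 had a named probe, and 42 of these were above background in no array. The 5 detected were C1QBP, a mitochondrial protein that also binds C1q, the membrane cofactor CD46, which helps factor I, SUSD4, a membrane protein with complement control repeats, C1RL, a relative of C1r, and SERPING1, the inhibitor of C1r and C1s. No initiator with a probe (C1q subunits, ficolins, MBL2, MASP1, MASP2), C2, C4A or any of the 7 genes of the terminal pathway was above background. With siBHLHE41, 2 of the 47 were over 1.5-fold with both siRNAs (SERPING1 and CFHR4) and 0 under 0.66-fold, beside 3.06% and 2.14% of all named genes. With siCPNE8, 2 were over 1.5-fold (COLEC12 and CSMD1) and 3 under 0.66-fold (C1QA, CPN2 and C4BPB), beside 2.51% and 2.70%. In the line concerned each of these 7 was below background in every array. The median of the mean log2 ratio of the 47 genes was -0.03 with siBHLHE41 and -0.06 with siCPNE8. At an adjusted p under 0.05 limma called 0 of them in either experiment, with 5 at an unadjusted p under 0.05 for siCPNE8 and 0 for siBHLHE41.

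SERPING1 was detected in RMG1 only. It had log2 values of 10.57 with siCPNE8 #A, 9.97 with #B and 9.70 with siControl in RMG1, against 4.56 with siBHLHE41 #A, 4.96 with #B and 3.96 with siControl in OVCAR3. RMG1 was at least 3.67-fold higher against the background of the OVCAR3 arrays. Limma tested the values as read, with a log2 difference of 5.59 (adjusted p = 1.40e-06 from limma, 3 arrays a line). The size of that difference rests on OVCAR3 values below background. SUSD4 was lower in RMG1, with 8.32 for siCPNE8 #A, 7.25 for #B and 7.45 for siControl, against 10.56 for siBHLHE41 #A, 11.17 for #B and 10.70 for siControl in OVCAR3 (log2 difference -3.14, adjusted p = 3.96e-05 from limma). Only the #A value of RMG1 was above background, so the size is uncertain. Limma called 3 of the 47 genes higher in RMG1 (SERPING1, COLEC12 and CFHR4) and 2 lower (SUSD4 and CSMD1), where 17.8% and 19.2% of all transcript probes were called, and COLEC12, CFHR4 and CSMD1 were above background in no array. CD46 averaged 12.93 ± 0.03 in RMG1 and 12.46 ± 0.51 in OVCAR3 and did not pass (adjusted p = 0.177 from limma, n = 3 arrays each).

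The nearest genes on either side of CFB and of the pair C1S and C1R were also examined. C2, a paralog of CFB from the same class III region of the major histocompatibility complex on chromosome 6, was above background in no array with log2 ratios of 0.33 (siBHLHE41 #A) and 0.10 (#B). EHMT2, a histone methyltransferase and the third gene on that side of CFB, was detected in all arrays and had 0.57 and 0.42. ZBTB12, whose first annotated base lies nearer to CFB than that of C2, was below background, and the 3 nearest genes on the other side were not analysed here. Neighbours were ordered by that base alone, which does not show which gene lies next to CFB. Around C1S and C1R on chromosome 12, C1RL was detected in every array. It lay above siControl by 1.02 (#A) and 0.49 (#B) on the log2 scale in RMG1, and its log2 ratios in OVCAR3 were -0.15 (#A) and 0.18 (#B). C1S, below background, read 0.73 and 0.45 in RMG1 and -0.54 and -0.41 in OVCAR3. LPCAT3, a phospholipid acyltransferase, and EMG1, a ribosome biogenesis factor, on the other side of the pair, stayed between -0.42 and 0.24 with all 4 siRNAs.

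Acute-phase genes, whose products rise in plasma with inflammation, were mixed beside CFB. LCN2, which sequesters bacterial iron carriers, had 9.46 with siBHLHE41 #A and 9.52 with #B, against 11.63 with siControl in OVCAR3. In RMG1 it was instead above siControl, with log2 ratios of 0.52 for siCPNE8 #A and 0.74 for #B. PTX3, a soluble pattern recognition protein, had 7.84 with siBHLHE41 #A and 5.94 with #B, against 9.09 with siControl, which alone was above background. SERPINA1, the antitrypsin gene, went the other way, with 10.11 and 10.66 for #A and #B, against 9.04 for siControl. The iron oxidase ceruloplasmin (CP) had log2 ratios of -0.54 and -0.29. Of 15 acute-phase genes measured, 3 were under 0.66-fold (LCN2, PTX3 and SAA1, the last below background) and 1 over 1.5-fold with both siBHLHE41 siRNAs. Among all named genes these shares were 2.14% and 3.06%. With siCPNE8 0 were over 1.5-fold and 1, SERPINA1, which was below background in RMG1, was under 0.66-fold. Among all named genes these shares were 2.51% and 2.70%. Both siRNAs lay below siControl for 10 of the 15 in OVCAR3 and 5 in RMG1, beside 34.8% and 33.6% of all named genes. Only 4 of the 15 were above background in OVCAR3, 3 of them below siControl with both, beside 33.7% of all genes above background there. In RMG1 2 were above background and 0 of these lay below siControl with both, beside 29.9%. The median mean log2 ratio of the 15 acute-phase genes was -0.27 in OVCAR3 and -0.05 in RMG1, in both lines mostly from genes below background. This list was chosen with earlier results of these data known, so nothing is read from its shares or medians.

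Of 13 cytokines and receptors measured that induce complement genes, 10 had values below siControl with both siBHLHE41 siRNAs in OVCAR3, beside 34.8% of all named genes. Under 0.66-fold were 3 of the 13, beside 2.14% of all named genes. Only 8 of the 13 were above background in OVCAR3, 6 of them below siControl with both, beside 33.7% of all genes above background there. IL6 had 8.57 with siBHLHE41 #A and 7.71 with #B, against 10.34 with siControl, and was not above background with #B. LIF, another ligand of this family, had 7.70 and 7.02 with #A and #B, against 8.51 with siControl, and only the last was above background. IL1A, the third gene of the list under 0.66-fold, was below background. With siCPNE8 7 of the 13 were below siControl with both siRNAs in RMG1, beside 33.6% of all named genes. Of the 9 above background in RMG1, 5 were, beside 29.9% of all genes above background there. The same list then had 1 gene under 0.66-fold, the receptor IL6R at -0.66 (#A) and -0.64 (#B) on the log2 scale, and 0 over 1.5-fold. Among all named genes these shares were 2.70% and 2.51%. The log2 ratio of IL6 itself was -1.78 for siCPNE8 #A and -0.38 for #B. The median mean log2 ratio of the list was -0.50 in OVCAR3 and -0.23 in RMG1. This list was chosen with earlier results of these data known, and both ratios of a line share 1 control array. Nothing is therefore read from its counts, shares or medians.

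Of 11 transcription factors measured that are known to act on complement promoters, 7 were below siControl with both siBHLHE41 siRNAs in OVCAR3. In RMG1 7 were below it with both siCPNE8 siRNAs. This stands beside 34.8% and 33.6% of all named genes. Above background were 8 of the 11 in OVCAR3, 5 of them below siControl with both, and 7 in RMG1, 5 of them below. Among all genes above background in the line these shares were 33.7% and 29.9%. The list was chosen with earlier results of these data known, so nothing is read from these shares. With siBHLHE41 0 of the 11 passed either fold limit, where 2.14% of all named genes were under 0.66-fold and 3.06% over 1.5-fold. The log2 ratio of STAT3 was -0.36 for #A and -0.78 for #B, and that of NFKBIZ, a coactivator of NF-κB, -0.25 and -0.82. With siCPNE8 2 were under 0.66-fold, NFKB1 with -1.48 and -0.86 and NFKB2 with -0.83 and -0.95, beside 2.70% of all named genes. Over 1.5-fold was 1, IRF9 of the interferon-activated complex with 0.65 and 1.12, beside 2.51%. IRF1 and CEBPD were above background in no array. The median mean log2 ratio was -0.28 in OVCAR3 and -0.30 in RMG1. Of the 39 genes measured in these 3 lists, 21 were lower with siBHLHE41 #B than with #A, as CFB was, beside 50.9% of all named genes. Of the 20 above background in at least 1 OVCAR3 array, 14 were, beside 48.3% of all genes above background there. By list these were 1 of 4 acute-phase genes, 6 of 8 transcription factors and 7 of 8 cytokines and receptors. IL6, LIF, PTX3, STAT3 and NFKBIZ were among the 14, and LCN2, CP, SERPINA1, CEBPB, IRF9 and IL1R1 were not. PTX3 and LIF were above background with siControl alone, and IL6 was not above it with #B. For these genes, as for CFB, the order of the siRNAs rests at least in part on values not above background. Nothing is therefore read from these counts. The part of these genes in the CFB values was not tested. With RNA from whole cultures, fewer cells that express a gene and less RNA per cell cannot be told apart.

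**Figure D4:**
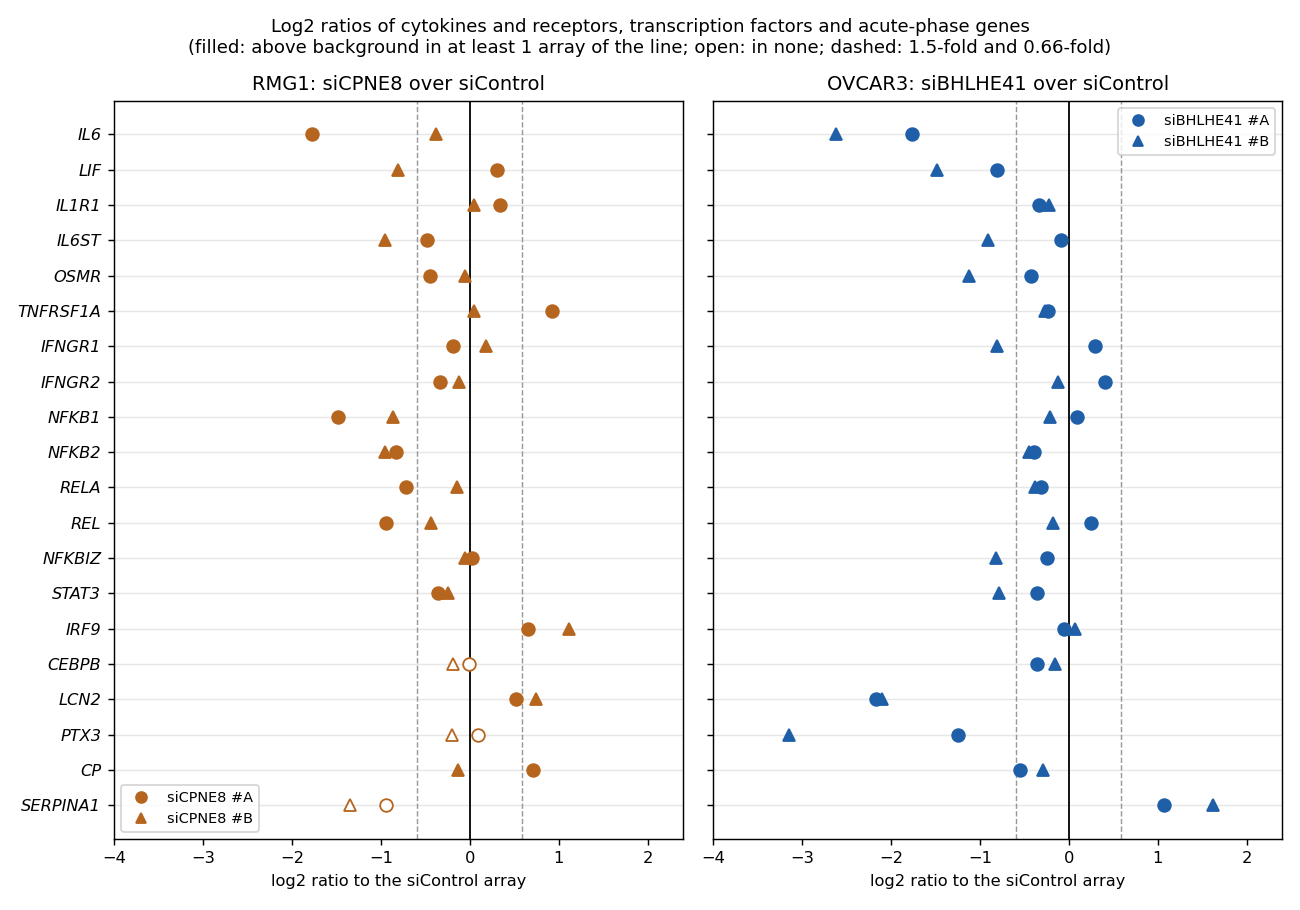
Log2 ratio to the siControl array of the line (horizontal axis) for 20 genes of cytokine signaling, transcription and the acute phase, with circles for siRNA #A and triangles for #B and open symbols for genes above background in no array of the line. IL6, LIF, LCN2 and PTX3 lie below -0.6 with both siBHLHE41 siRNAs in OVCAR3 and SERPINA1 above 1, whereas NFKB1 and NFKB2 are lower with both siCPNE8 siRNAs in RMG1.

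The 4 log2 ratios (2 siRNAs in each line) of CFB, C3, C1S and CD55, and of no other of the 9 genes, were also set against those of detected genes, with the root mean square difference as the measure. Closest to CFB among 7993 genes above background in at least 3 arrays was LCN2, at 0.75, followed by the basement membrane protein NID2 at 0.92 and ARHGEF38 at 0.97. No gene lay within 0.3 of CFB. Of its 4 ratios only that with siBHLHE41 #A is between values above background, so this order is uncertain. For CD55 the closest were GNAI1, an inhibitory G protein subunit, at 0.07, the phospholipase PLCE1 at 0.12 and EEF1E1-BLOC1S5 at 0.15, and 6 genes lay within 0.2. C3, whose ratios were small, had 385 genes within 0.2, led by NT5C3A, SGO2 and HSCB at 0.05 to 0.06. C1S was above background in no array, so its nearest genes (CDKN2AIP, GUCY1B1 and TUBD1 at 0.08 to 0.11) are named only because the rule called for them.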

How the data were processed

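The authors deposited log2 values for 24351 probes of 6 Affymetrix Clariom S arrays, made by RMA (background correction, normalization between arrays and summary of features) with Affymetrix Expression Console according to the submitters' processing notes, whose versions were not stated. The highest values lie between 17.73 and 18.35, above the log2 of a 16-bit scale, which RMA alone would not give; this further scaling is undescribed, and ratios may be stretched or shrunk by it. Of 21448 transcript probes, 17709 carry 1 gene symbol in the array annotation, naming 17687 genes; 3739 are unnamed here, and several probes of a gene were averaged. Each of the 9 genes has 1 probe.

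Log2 ratios are siRNA minus siControl within a line. A gene was called when both siRNAs passed 1.5-fold or 0.66-fold. Other complement genes were tested with limma 3.58.1 (R 4.3.3; lmFit, eBayes; Benjamini-Hochberg over 21448 probes). Knockdowns were tested in 1 fit of 4 groups with 2 residual degrees of freedom, in which control arrays are assumed to vary like the siRNA pairs, and lines as 3 against 3 arrays, where an exact permutation test could not go below 0.1. Scripts were tested on simulated data. Alternatives were other fold limits, quantile normalization, median centring, dim genes left out, siControl arrays only, single arrays left out and, for limma, a variance trend, control probes kept, 1 line fitted alone and 4 groups for the lines. The wider NF-κB form was searched after the first results were seen. The genes, lists and rules were chosen with earlier results of these data known. Named were the 9 genes, the targets, listed genes past the fold limits and above background, up to 3 bright others of a list, neighbours and genes with the most similar ratios; COLEC12, CFHR4, CSMD1, C1QA, CPN2, C4BPB, SAA1, IL1A, IRF1, CEBPD, CEBPB and IL1R1 were added after their values were seen. The number of arrays limits the precision.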

Additional observations from a re-analysis of the deposited data

How the results depend on the processing

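CFB and C5AR1 were under 0.66-fold of siControl with both siBHLHE41 siRNAs under every alternative run for OVCAR3, including thresholds of 2-fold and 0.5-fold. Those thresholds left 0 of the 9 genes over the upper limit in either experiment, and 0 of the 47 others over it, with 1 of these under the lower limit for siCPNE8. With dim genes left out, 1 of the 9 genes (CD55) was over 1.5-fold for siCPNE8 and 0 for siBHLHE41, the 47 others had 0 over and 0 under in either experiment, and limma called 1 of them higher and 1 lower in RMG1 than in OVCAR3; fewer genes are counted there by construction. Quantile normalization left 1 of the 9 genes over 1.5-fold for siCPNE8, CFB, since CD55 fell to 1.46-fold with #B. Median centring left 1 of the 47 others over 1.5-fold for siBHLHE41. With the siControl arrays alone, 2 of the 9 genes were higher and 7 lower in RMG1, a rule that 1 array a line always fills.

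With 1 siRNA left out, the 9 genes had 2 to 5 over 1.5-fold and 0 to 1 under 0.66-fold for siCPNE8, and 1 to 3 over and 2 to 3 under for siBHLHE41, with 5 over for siCPNE8 and 3 over for siBHLHE41 without #B. The 47 others had 2 to 8 over (8 without #B) and 3 to 5 under (5 without #A) for siCPNE8, and 3 to 4 over and 0 to 3 under (4 and 3 without #A) for siBHLHE41. Without 1 array, 4 to 6 of the 9 genes were lower and 1 higher in every RMG1 array, and limma called 3 to 4 others higher and 2 to 3 lower. For the knockdowns limma called 0 of the 47 under every alternative, with smallest adjusted p values of 0.437 (siCPNE8) and 0.866 (siBHLHE41). With other settings than leaving out an array, which cannot move a mean of 2 or 3 values by 1 SD, 55 of 63 recomputed values of the 9 genes moved by less than 1 SD. Quantile normalization or centring moved none by over 0.07, though 1 SD was passed by the ratios of C1R and C5AR1 in OVCAR3. With siControl arrays alone the line differences (RMG1 minus OVCAR3) of 4 genes moved by more than 1 SD. They went from -5.60 to -7.82 for CFB, -1.54 to -2.25 for C1S, 1.29 to 0.54 for CD55 and -0.14 to 0.88 for C1R. No paired analysis was possible because the letters #A and #B name siRNAs of different targets and each line has 1 control array.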
